A study of Mus musculus with 3 samples.

Results

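The genes described here build the MHC class I molecules that show peptides from inside a cell to T cells. All 8 were found by symbol among 31053 genes: the heavy chains H2-K1, H2-D1 and H2-T23, the light chain B2m, the peptide transporter subunits Tap1 and Tap2, the loading factor Tapbp and the transactivator Nlrc5. They were followed in the skin cells of 3 single-cell RNA libraries from the back of C57BL/6 mice aged 7 weeks. The normal library came from control skin treated with glycerin, the IMQ library from skin treated with imiquimod, which activates a Toll-like receptor and is used to model psoriasis, and the third, here called IMQ+celastrol, from skin given celastrol, a plant triterpenoid, as well as imiquimod. The labels do not give how many animals each library holds. With 1 library per group there was no test over replicates, and the treatment cannot be told apart from the library.

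After filtering, the normal library had 9558 cells with a median of 5737.5 unique molecular identifiers (UMIs, each 1 captured RNA molecule), the IMQ library 7495 cells with 8840.0, and the IMQ+celastrol library 6092 cells with 10610.0. Clusters were named only from marker genes, so each class is called "-like"; 36 of 42 clusters received a name, among them keratinocyte, fibroblast, endothelial and immune classes of skin. The lower follicle was almost only in the normal library: the normal library held 509 hair matrix-like and 593 inner root sheath-like cells, the IMQ library 0 and 1, and the IMQ+celastrol library 0 and 1. Pairs of libraries shared between 15 and 26 cell barcodes. Levels are given in CPM, the UMIs of a gene in the cells of a class scaled to a class total of 1000000, with a 95% Poisson interval. A ratio between libraries or classes has an exact 95% interval in parentheses. Both intervals cover counting error only, not variation between animals. A gene was called higher or lower where it differed at least 1.5-fold, its interval lay on one side of 1 and it had at least 20 UMIs over both sides. Each comparison is read beside the share of all tested genes that passed the same rule in the same direction.

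On class I molecules, a heavy chain pairs with beta-2-microglobulin, the product of B2m, and holds a short peptide. The proteasome cuts proteins into peptides, the transporter of Tap1 and Tap2 carries them into the endoplasmic reticulum, and tapasin, the product of Tapbp, brings the empty heavy chain to the transporter. H2-K1 and H2-D1 encode classical heavy chains read by CD8 T cells. H2-T23 encodes Qa-1, a nonclassical chain read by the NKG2A receptor of natural killer cells and some T cells. Nlrc5 activates transcription of the class I genes, and interferons raise many of them. The growing hair follicle is known as a site of low class I, described as immune privilege.

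In the annotation of mouse build GRCm38, 6 of the genes lie in the major histocompatibility complex of chromosome 17 and all 8 are protein coding. Tapbp lies at chr17:33915899-33929292 on the plus strand, H2-K1 at chr17:33996017-34000347 on the minus strand, Tap1 at chr17:34187553-34197225 and Tap2 at chr17:34203527-34216321 on the plus strand. H2-D1 lies at chr17:35262730-35267499 on the plus strand and H2-T23 at chr17:36029773-36032855 on the minus strand. B2m lies at chr2:122147686-122153083 and Nlrc5 at chr8:94434356-94527272, both on the plus strand. Because the reads come from the 3′ end of the RNA, sequence shared with other genes matters there. The last 500 bases of the longest coding transcript of each member gave 451 words of 50 bases. Of these, 172 of H2-T23 (38.1%), 43 of H2-D1 (9.53%) and 2 of H2-K1 (0.443%) also occur in another gene. The other 5 members had 0. The H2-D1 words were shared with H2-K1 and 79 genes without an H2 name, the H2-T23 words with several class I genes and 75 without one. By this measure H2-T23 shares the most of the 8. Tap1 overlaps Psmb9, B2m overlaps Patl2, H2-T23 overlaps A930015D03Rik, Tap2 overlaps Gm15821 and Gm20496, and Nlrc5 overlaps 9330175E14Rik, all on the opposite strand. Tapbp overlaps Gm19412 on the opposite strand and the protein-coding Zbtb22 on its own strand. The strand setting of the counting is not given in the sources used here, so whether reads of such pairs were kept apart is not known here.

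The promoters are shown as background, and no link between their motifs and the levels that follow was tested. A RefSeq table on GRCm38.p6 held promoter windows (250 bases before to 50 after the start) for 6 of the 8 members; Tap2 and Nlrc5 had no entry. Capitals mark motif matches on either strand: the core of the interferon-stimulated response element (GAAA, 2 bases of any kind, GAAA) or its shorter form GAANNGAAA, a kappa B motif (GGGA, 4 bases of any kind, CC), TGACG (the core of the cyclic AMP response element) and CCAAT (the Y box). Class I promoters are known to carry elements of these kinds. Each sequence reads 5′ to 3′ on the strand of its gene.
H2-K1, chr17:34000354-34000463, minus strand: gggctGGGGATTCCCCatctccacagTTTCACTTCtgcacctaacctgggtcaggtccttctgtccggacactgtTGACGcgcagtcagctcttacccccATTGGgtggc
B2m, chr2:122147543-122147643, plus strand: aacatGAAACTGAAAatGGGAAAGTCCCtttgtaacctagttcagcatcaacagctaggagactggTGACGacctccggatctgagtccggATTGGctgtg
H2-D1, chr17:35262923-35262952, plus strand: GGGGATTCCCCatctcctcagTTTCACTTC
H2-T23, chr17:36032816-36032825, minus strand: TTTCTCTTTC
The H2-K1 and H2-D1 stretches carry the same kappa B match followed by the same match of the shorter interferon motif. CCAAT was found in 6 of 6 member windows and in 37.4% of all 32851 promoter windows, TGACG in 4 of 6 (H2-K1, H2-D1, B2m and Tap1) and in 20.8%, and the kappa B motif in 3 of 6 (H2-K1, H2-D1 and B2m) and in 20.7%. The full interferon core was found in 2 of 6 (H2-T23 and B2m) and in 3.44%. The shorter GAANNGAAA, searched after the windows had been seen, was found in another 2 of 6 (H2-K1 and H2-D1) and in 7.52%. The kappa B motif matched on both strands at overlapping positions in each of its 3 members. TTCNNNGAA, the interferon-gamma activated site, was in 0 of 6 windows and in 8.30% of all. A match is a run of letters, and no factor was measured here.

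In control skin the class I genes were carried at their highest levels by endothelial and immune cells, at middling levels by surface keratinocytes and fibroblasts, and at their lowest levels by the cells that build the hair shaft and its inner sheath. H2-K1 reached 3733 CPM (95% interval 3586 to 3884) in cluster 19, an unnamed lymphoid cluster led by Ccl5, Gzma and Ifng. It stood at 2885 CPM in blood endothelial-like, 2591 in T cell-like and 2283 in monocyte or macrophage-like cells, and these 4 did not overlap. Next came lymphatic endothelial-like, basal keratinocyte-like, dendritic cell-like, Langerhans cell-like and upper follicle keratinocyte-like cells, from 1448 down to 1235 CPM, each overlapping its neighbour in this order. Fibroblast-like cells had 862 CPM. The order ended with dermal papilla-like (363), outer root sheath or bulge keratinocyte-like (306), inner root sheath-like (141) and hair matrix-like cells (137 CPM), of which the last pair overlapped.

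H2-D1, the other classical heavy chain, followed a like order. Its highest levels, 3758 CPM in blood endothelial-like, 3556 in cluster 19, 3509.8 in T cell-like and 3246 in monocyte or macrophage-like cells, overlapped from each to the next. Basal keratinocyte-like cells had 1394 CPM, fibroblast-like cells 1063, and the lowest were inner root sheath-like (244) and hair matrix-like cells (241 CPM), which overlapped. H2-T23 was highest in the endothelium: 505 CPM in lymphatic and 473 in blood endothelial-like cells, overlapping. Among keratinocytes it was higher in the upper follicle (224 CPM) than in basal cells (115 CPM), and the intervals did not overlap. Its lowest levels were 10.8 CPM in inner root sheath-like and 7.84 CPM in hair matrix-like cells, which overlapped.

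B2m, whose product every class I heavy chain needs, was highest in monocyte or macrophage-like (2978 CPM) and blood endothelial-like cells (2815), which overlapped. From basal keratinocyte-like (1406) through Langerhans cell-like, upper follicle keratinocyte-like, cluster 12, fibroblast-like and sebocyte-like to Schwann cell-like cells (1038 CPM) each class overlapped the next. The level then dropped over differentiated keratinocyte-like (773), pericyte or smooth muscle-like (564), dermal papilla-like (447) and outer root sheath or bulge keratinocyte-like cells (305), none of which overlapped its neighbour, to 90.9 CPM in hair matrix-like and 84.5 CPM in inner root sheath-like cells.

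The transporter, loading and transactivator genes had fewer UMIs, and most neighbours in their orders overlapped. Tap1 ranged from 114 CPM in cluster 19 to 13.1 CPM in pericyte or smooth muscle-like cells, with keratinocytes in its upper part (92.2 in upper follicle and 79.1 in basal cells) and hair matrix-like cells at 14.4. Tap2 was highest in blood endothelial-like cells (135 CPM), where it overlapped cluster 19 (86.1 CPM), and lowest in hair matrix-like cells (8.98 CPM). Its place in keratinocytes differed from that of Tap1, since basal (30.6) and differentiated keratinocyte-like cells (28.6 CPM) were near the low end. Tapbp stood at 188 CPM in blood endothelial-like and 171 CPM in fibroblast-like cells, overlapping, and at 14.9 CPM in hair matrix-like cells. Nlrc5 was highest in differentiated keratinocyte-like cells (41.9 CPM), where it overlapped cluster 19 (35.4 CPM). It was 23.4 CPM in basal keratinocyte-like and 3.41 CPM in fibroblast-like cells. Schwann cell-like cells had 0 Nlrc5 UMIs, which allows up to 15.8 CPM.

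**Figure D1:**
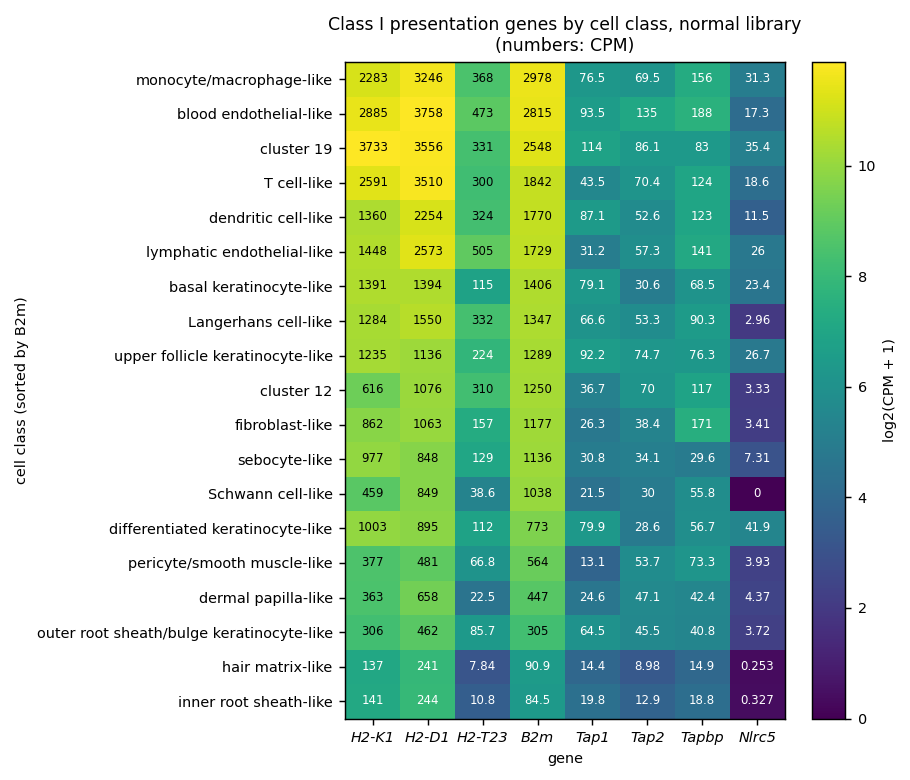
Level of each of the 8 genes (CPM, shown on a log scale) in every class with at least 50 cells in the normal library. Hair matrix-like and inner root sheath-like cells sit at or near the low end for all 8 genes, and for H2-K1, H2-D1, H2-T23 and B2m they are the lowest of the 19 classes.

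Over 52 combinations of class and library, H2-K1 varied 27.3-fold from its lowest to its highest level, H2-D1 15.6-fold, B2m 35.2-fold and H2-T23 78.1-fold. The members followed each other to unequal degrees. On log2(CPM + 1), the Pearson correlation of a member with the mean of the other 7 was 0.92 for H2-K1 and for H2-T23, 0.90 for H2-D1, 0.89 for B2m, 0.80 for Tapbp, 0.77 for Tap2, 0.70 for Nlrc5 and 0.66 for Tap1. The closest pair was H2-K1 and H2-D1 (r = 0.90), and the loosest was Tap1 and Tap2 (r = 0.45), whose products form 1 transporter. These are descriptions: the points share 3 libraries and their depths. Of 8814 genes that reach at least 50 CPM somewhere, the 10 whose level was most like the mean of the members were H2-Q7 (r = 0.86), Psmb8 (0.86), H2-Q6 (0.86), H2-T22 (0.85), Psmb9 (0.83), Ly6e (0.82), Apobec3 (0.80), Git2 (0.79), Psme1 (0.79) and Shisa5 (0.79). By Spearman's rho, 8 of these 10 ranked within the first 8 places, with Git2 at 13 and Shisa5 at 39.

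The lower hair follicle of control skin had less of every member than the surface epidermis. The 1102 lower follicle-like cells (hair matrix and inner root sheath) were set against the 1616 interfollicular keratinocyte-like cells (basal and differentiated), and 8 of 8 members were lower, beside 21.9% of all genes tested lower and 37.5% higher. H2-K1 was at 139 CPM in the lower follicle and 1293 CPM in the surface cells, 9.32-fold lower (8.89 to 9.76). H2-D1 was at 242 and 1268 CPM, 5.24-fold lower (5.05 to 5.43). H2-T23 was at 9.13 and 114 CPM, 12.5-fold lower (10.5 to 15.1). Thus the classical and the nonclassical heavy chains were all lower. B2m was at 88.1 and 1246 CPM, a ratio of 0.0707 (0.0667 to 0.0749). The light chain therefore differed more than either classical heavy chain, whose ratios of 0.107 (H2-K1) and 0.191 (H2-D1) had intervals above that of B2m.

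Of the genes that supply and load peptides, Tap2 and Tapbp differed less than the heavy chains and B2m. The interval of Tap1 overlapped that of H2-D1. Tap1 was 4.73-fold lower (4.11 to 5.47) in the lower follicle, Tap2 2.82-fold lower (2.34 to 3.41) and Tapbp 3.94-fold lower (3.42 to 4.57). Nlrc5 was close to undetected: 4 UMIs in 1102 cells gave 0.285 CPM, against 28.1 CPM in the surface cells, 98.5-fold lower (38.2 to 363). The 2 lower follicle classes gave the same calls when taken apart, 8 of 8 lower in inner root sheath-like cells (background 22.2%) and 8 of 8 in hair matrix-like cells (background 22.9%). Lower follicle cells were the deeper ones, with a median of 12280.0 UMIs against 8719.0. Among cells of 10000 to 30000 UMIs only, 710 lower follicle and 596 surface cells, B2m was at 88.4 and 1166 CPM and H2-K1 at 137 and 1216 CPM, and 8 of 8 members were again lower (background in these cells 22.2%).

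The difference also showed in the share of cells with a B2m UMI. With every cell thinned to 2000 UMIs, B2m was seen in 14.3% (11.3 to 17.6) of hair matrix-like and 14.8% (11.99 to 18.0) of inner root sheath-like cells, but in 42.6% (39.1 to 46.2) of outer root sheath or bulge, 86.6% (83.6 to 89.3) of upper follicle and 91.8% (90.1 to 93.3) of basal keratinocyte-like cells. Without thinning the shares were 58.0% of hair matrix-like and 99.4% of basal keratinocyte-like cells, at medians of 15213.0 and 8441.0 UMIs. No class here was taken as free of B2m, and barcodes under 500 UMIs are not in the files, so a level of free RNA could not be set beside these shares. Its part in the low levels was not tested. Of these classes, 5, 26, 45, 29 and 19 cells were too shallow for the thinning, in the order named. A list of 8 general leukocyte markers summed to 4.42 CPM in the lower follicle and 11.1 CPM in the surface cells.

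Outside the lower follicle the drop was partial. In outer root sheath or bulge keratinocyte-like cells 5 members were lower than in surface cells (background 13.3%): H2-K1 4.22-fold lower (4.04 to 4.42), B2m 4.08-fold lower (3.90 to 4.27), H2-D1 2.74-fold lower (2.64 to 2.85), Nlrc5 7.55-fold lower (5.08 to 11.7) and Tapbp 1.61-fold lower (1.41 to 1.84). In the same cells Tap2 was higher, at 45.5 against 30.1 CPM (background 37.2%), and H2-T23 and Tap1 passed in neither direction. Upper follicle keratinocyte-like cells had 0 members lower (background 14.7%) and 2 higher, H2-T23 at 224 against 114 CPM and Tap2 at 74.7 against 30.1 CPM (background 12.5%). In sebocyte-like cells Tap1, Tapbp and Nlrc5 were lower (background 18.4%) while H2-K1, H2-D1, H2-T23, B2m and Tap2 passed in neither direction. The leukocyte markers summed to 51.1 CPM in sebocyte-like cells, against 11.1 CPM in the surface cells, and their part was not tested. Dermal papilla-like cells, the mesenchyme at the base of the follicle, had 7 members lower (background 17.2%) and Tap2 higher (background 50.1%).

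**Figure D2:**
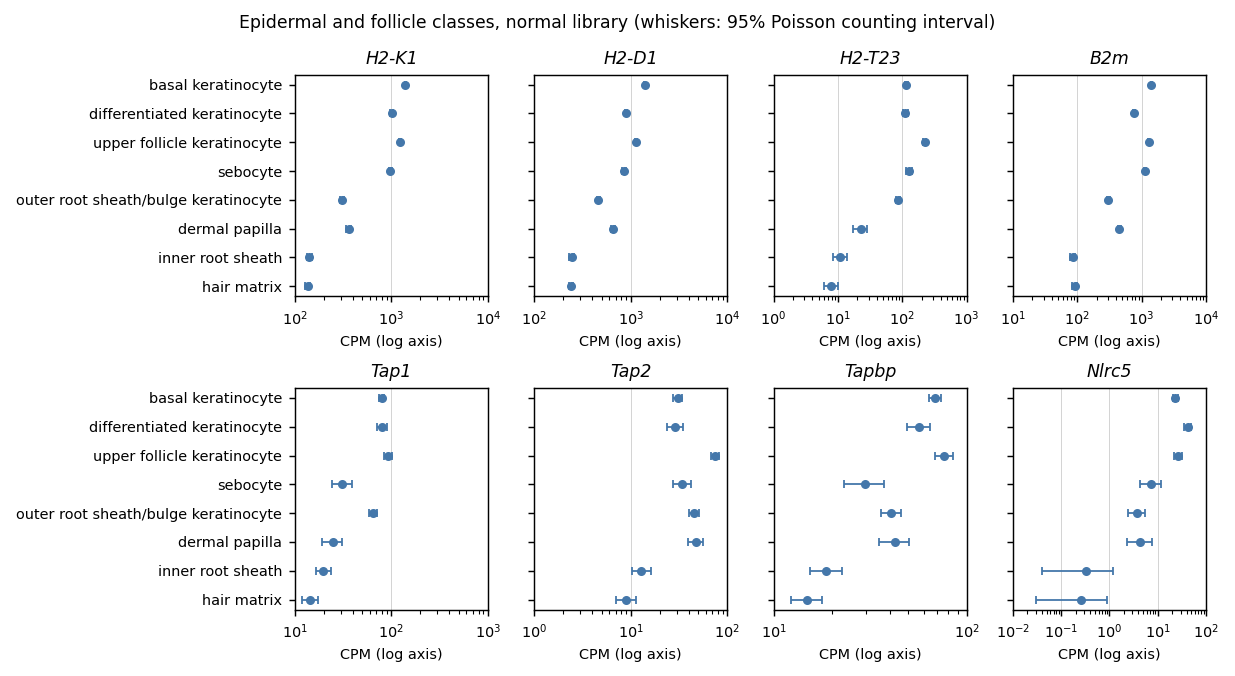
Level of each of the 8 genes (CPM, log axis, whiskers 95% Poisson counting intervals) in the epidermal and follicle classes of the normal library. The hair matrix-like and inner root sheath-like points lie below the basal, differentiated and upper follicle points for all 8 genes, with Nlrc5 below 1 CPM in both.

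Other genes of the route, from lists of known pathway members, gave mixed counts in the lower follicle, to be read against the same 21.9% lower and 37.5% higher over all genes tested. Of 9 other class I genes with enough UMIs, 8 were lower: H2-Q7 was at 2.78 against 224 CPM, and H2-Q6 at 0.784 against 50.4 CPM. Of 6 peptide supply genes 5 were lower, among them the immunoproteasome subunits Psmb8 (10.3 against 132 CPM) and Psmb9 (14.6 against 97.7 CPM), while the subunit Psmb10 was higher (51.1 against 26.7 CPM). Of 4 general folding genes, Calr, Canx and Pdia3 passed in neither direction and the tapasin relative Tapbpl was lower. Of 7 interferon ligand and receptor genes tested, the interferon-gamma receptor chain Ifngr1 (8.84 against 131 CPM) and the kinase Jak1 (18.2 against 105 CPM) were lower. Of 14 transcriptional control genes 5 were lower, among them Irf1 and Irf9, and 1 was higher (Nfyb). The median log2 difference was -2.80 over the 8 members, -2.53 over the other class I genes and -0.20 over the transcriptional control genes. The genes named in this paragraph were chosen after their values were seen.

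In keratinocytes of the IMQ library, every class I member took a smaller share of the cell's RNA than in the normal library, while dermal papilla-like cells showed 5 members higher. Over the 12 named classes that had at least 50 cells in both libraries, 91 pairs of member and class could be compared. Of these, 32 were lower and 10 higher in the IMQ library, beside 13.6% lower and 14.2% higher among all pairs of gene and class. The lower calls included 8 in basal keratinocyte-like, 8 in upper follicle keratinocyte-like, 5 in blood endothelial-like, 4 in monocyte or macrophage-like and 3 in T cell-like cells. Under the alternatives at the same fold that could be computed for each pair, 25 of the 32 lower and 6 of the 10 higher calls held in every one. By gene, H2-K1 and H2-D1 were lower in 6 classes each, H2-T23 in 5, Tap2 and Tapbp in 4 each, Nlrc5 in 3, and B2m and Tap1 in 2 each.

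Basal keratinocyte-like cells, the dividing layer of the epidermis, numbered 1238 in the normal and 339 in the IMQ library. All 8 members were lower (background 19.4%), with a median log2 ratio of -1.46 against 0.10 over all genes tested in the class. H2-K1 fell from 1391 CPM in the normal to 495 CPM in the IMQ library, 2.81-fold lower (2.74 to 2.89). H2-D1 fell from 1394 to 649 CPM, 2.15-fold lower (2.10 to 2.20). H2-T23 fell from 115 to 37.2 CPM, 3.10-fold lower (2.82 to 3.40). The light chain had the lowest ratio of the 8, with an interval that overlapped that of H2-T23. B2m fell from 1406 to 408 CPM, 3.45-fold lower (3.36 to 3.55). Tap1 fell from 79.1 to 27.5 CPM and Tap2 from 30.6 to 13.6 CPM. The loading factor Tapbp fell from 68.5 to 25.1 CPM, and the transactivator Nlrc5 from 23.4 to 8.01 CPM, 2.92-fold lower (2.38 to 3.60).

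These were falls in share, while the UMIs counted per cell were higher. Basal keratinocyte-like cells held on average 9177 UMIs in the normal and 54123 in the IMQ library, and the mean number of H2-K1 UMIs per cell was 12.8 in the normal and 26.8 in the IMQ library. For H2-D1 these means were 12.8 and 35.2, for B2m 12.9 and 22.1, and for Tap1 0.726 and 1.49. Whether more UMIs per cell came from larger cells or from deeper capture was not tested. The class also rested on different clusters: clusters 6 and 34 held 974 and 187 of the normal cells, while cluster 15, led by cell division genes, held 327 of the 339 IMQ cells. Cluster 34, the dividing basal cluster of the normal library, had 1726 CPM of H2-K1 and 1609 of B2m, and cluster 15 in the IMQ library 493 and 406 CPM. The 8 leukocyte markers summed to 10.3 CPM in the normal and 9.59 CPM in the IMQ library.

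Upper follicle keratinocyte-like cells, 598 in the normal and 405 in the IMQ library, likewise had 8 of 8 members lower (background 17.4%), with a median log2 ratio of -1.19 against 0.02 over all genes. H2-K1 fell from 1235 to 539.8 CPM, 2.29-fold lower (2.21 to 2.37). B2m fell from 1289 to 601 CPM, 2.14-fold lower (2.07 to 2.22). Tap1 fell from 92.2 to 28.7 CPM and Nlrc5 from 26.7 to 7.88 CPM, the largest ratios of the 8 here. Cluster 22 held 404 of the normal cells and 1 of the IMQ cells, so the values within cluster 2, which held 194 and 404, are the closer match. Cluster 2 took its name from 2 markers among its 10 leading genes, Krt79 and Defb6, and its score for basal keratinocytes was as high (0.799 against 0.796). In it H2-K1 stood at 1089 and 539 CPM and B2m at 1181 and 599.6 CPM. Per cell, B2m counted 10.3 UMIs in the normal and 18.6 in the IMQ library. Among cells of 10000 to 30000 UMIs, 125 normal and 187 IMQ cells, 8 of 8 members were again lower (background in these cells 13.1%), with H2-K1 at 993 and 618 CPM and B2m at 1135 and 737 CPM. In that range only 24 basal keratinocyte-like cells of the IMQ library remained, too few for the comparison. The leukocyte markers summed to 10.2 CPM in the normal and 12.7 CPM in the IMQ library.

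**Figure D3:**
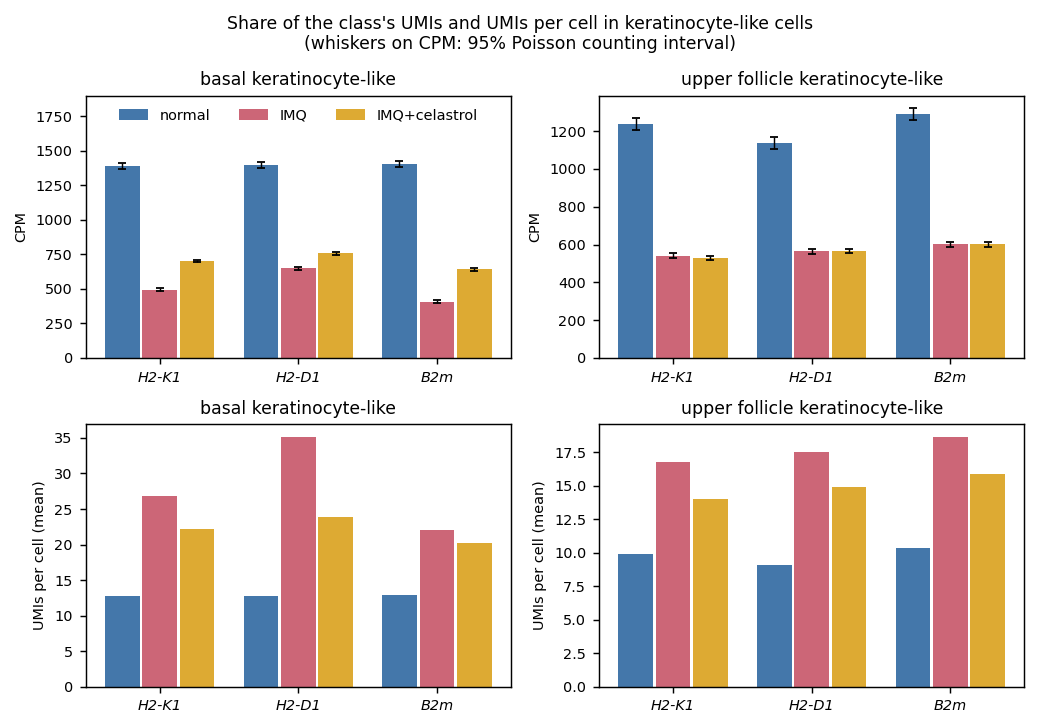
Upper panels: share of the class's UMIs (CPM, whiskers 95% Poisson counting intervals) held by H2-K1, H2-D1 and B2m in basal and upper follicle keratinocyte-like cells of the 3 libraries; lower panels: mean UMIs of the same genes per cell. The normal bars are the tallest in each upper group and the shortest in each lower group.

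Vascular and immune classes gave a smaller set of lower members. These too were falls in share, and UMIs per cell are not compared here. In blood endothelial-like cells (187 normal and 50 IMQ cells, background 11.9%) H2-K1 fell from 2885 to 1469 CPM, H2-D1 from 3758 to 2446, H2-T23 from 473 to 201, Tap2 from 135 to 77.6 and Tapbp from 188 to 91.1 CPM. B2m in these cells stood at 2815 and 2146 CPM, under the 1.5-fold line, and the median depth was 3219.0 and 15224.5 UMIs. The leukocyte markers summed to 8.63 and 41.6 CPM there, and their part in the result was not tested; the H2-D1 call was lost when doublets were kept. In monocyte or macrophage-like cells (127 and 562 cells, background 7.99%) H2-K1 fell from 2283 to 1061 CPM, H2-D1 from 3246 to 1909, H2-T23 from 368 to 216 and Nlrc5 from 31.3 (9 UMIs) to 12.8 CPM. The median depth of these cells was 1834.0 UMIs in the normal and 6865.5 in the IMQ library. With each library clustered by itself, H2-T23 and Nlrc5 lost their call. Cluster 35 held 106 of the normal and cluster 17 held 503 of the IMQ cells; within cluster 35 H2-K1 stood at 2373 and 998 CPM. In T cell-like cells (447 and 495, background 13.8%) H2-K1 fell from 2591 to 1549 CPM, H2-D1 from 3509.8 to 2048 and Tapbp from 124 to 65.1 CPM, while B2m was at 1842 and 1674 CPM. The H2-K1 and H2-D1 calls of T cell-like cells were the least stable, and both were lost when doublets were kept. Each held in 8 of 13 alternatives. Among the 13, dropping the minimum of UMIs or adding 10 CPM before the logarithm could not lose a call. Cluster 11 held 342 normal and 265 IMQ cells, and H2-K1 stood there at 2504 and 2226 CPM and H2-D1 at 3488 and 2901 CPM, both under the line. Cluster 23, led by Il17a and Il22, held 70 and 230 cells, with H2-K1 at 2359 and 1304 CPM and H2-D1 at 2813 and 1740.2 CPM. The class therefore took a larger part of its IMQ cells from a cluster whose IMQ cells had the lower levels.

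Single calls completed the lower set. Pericyte or smooth muscle-like cells had less H2-T23 (66.8 to 25.7 CPM) and Tap2 (53.7 to 24.9 CPM, background 11.5%). Within cluster 7, with 157 normal and 385 IMQ cells, H2-T23 stood at 25.3 and 13.1 CPM and Tap2 at 55.2 and 23.2 CPM. The higher class level of H2-T23 in the normal library thus drew on the 27 normal cells of cluster 30. Langerhans cell-like cells, the dendritic cells of the epidermis, had less H2-D1 (1550.0 to 1003 CPM; background 9.08%). Dendritic cell-like cells had less H2-K1 (1360.1 to 765 CPM; background 6.94%) and more Tap1 (87.1 to 131 CPM; background 17.1%), in a class where all genes had a median log2 ratio of 0.20. The Langerhans call and the Tap1 call were lost when libraries were scaled by the median ratio over genes.

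The higher members stood mostly in dermal papilla-like cells, 561 in the normal and 250 in the IMQ library (background 19.6%). H2-K1 rose from 363 to 1075 CPM, 2.96-fold higher (2.74 to 3.20). H2-D1 rose from 658 to 1494 CPM, 2.27-fold higher (2.14 to 2.41). B2m rose from 447 to 1307 CPM, 2.92-fold higher (2.72 to 3.13). H2-T23 (22.5 to 85.3 CPM) and Nlrc5 (4.37 to 13.9 CPM) rose with them, while Tap1, Tap2 and Tapbp did not pass. The class is 2 different clusters: cluster 21, with 7 of 7 dermal papilla markers, held 495 of the normal cells and 0 of the others, and cluster 13, with 5 of 7 markers and a fibroblast score nearly as high (0.51 against 0.60), held 66 normal and all 250 IMQ cells. Within cluster 13, H2-K1 stood at 462 and 1075 CPM and B2m at 629 and 1307 CPM. H2-T23 stood there at 59.0 and 85.3 CPM, which no longer reached the line. The leukocyte markers summed to 5.72 CPM in the normal and 13.3 CPM in the IMQ library, with Cd53 and Rac2 at 0 in the latter, and their part in the result was not tested.

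Schwann cell-like cells (112 and 74, background 7.81%) had more H2-D1 (849 to 1821 CPM) and H2-T23 (38.6 to 119 CPM). Lymphatic endothelial-like cells (52 and 182, background 5.49%) had more Tap2 (57.3 to 107 CPM), 1.86-fold higher (1.01 to 3.81), a call that was lost when doublets were kept. Fibroblast-like cells, 2740 in the normal and 2867 in the IMQ library, had only Nlrc5 past the line (3.41 to 6.54 CPM; background 13.5%), and not so at the finer clustering. The leukocyte markers summed to 12.9 CPM in the normal and 23.5 CPM in the IMQ fibroblasts, and their part was not tested. Their H2-K1 stood at 862 and 1051 CPM and their B2m at 1177 and 1554 CPM. These sums hide unlike fibroblast clusters: cluster 0 held 1334 normal and 4 IMQ cells and cluster 1 held 1 and 1268. Of the 4 clusters with at least 50 cells in both libraries, cluster 4, with 681 and 89 cells, had H2-K1 at 233 and 686 CPM and B2m at 448 and 1012 CPM. The other 3 clusters differed less. Cluster 3 had H2-K1 at 581 and 711 CPM and B2m at 805 and 1222 CPM, and cluster 5 had H2-K1 at 1229.5 and 1659 CPM and B2m at 1519.6 and 2197 CPM. Cluster 14 had H2-K1 at 939 and 955 CPM and B2m at 1738 and 1781 CPM. Deep cells gave another count. Among cells of 10000 to 30000 UMIs, a restriction chosen after seeing the data that left 223 normal and 1165 IMQ cells, 5 members were higher, beside 2478 of 12362 genes tested in these cells, with H2-K1 at 315 and 954 CPM, H2-D1 at 492 and 1253, H2-T23 at 84.0 and 147, B2m at 569 and 1421 and Tap2 at 16.5 and 38.3 CPM. The cluster makeup of these deep cells was not matched.

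**Figure D4:**
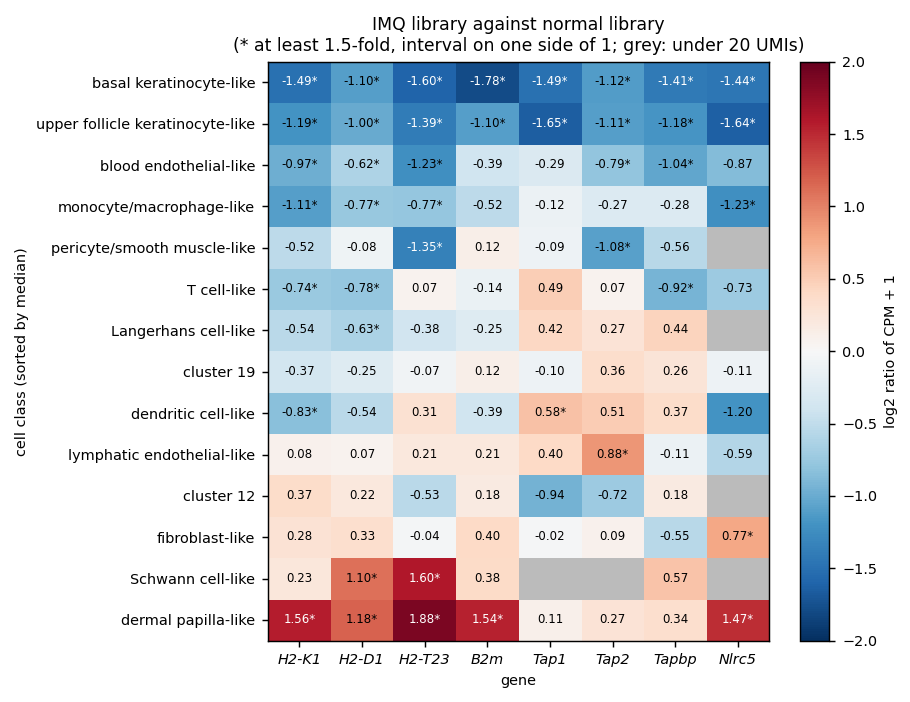
Log2 ratio of CPM + 1 in the IMQ library over the normal library for each of the 8 genes (columns) in each class with at least 50 cells in both (rows); an asterisk marks at least 1.5-fold with the interval on one side of 1, and grey marks fewer than 20 UMIs. The basal and upper follicle keratinocyte-like rows carry an asterisk at all 8 genes with negative values, and the dermal papilla-like row carries 5 with positive values.

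The rest of the pathway did not move as 1 block in the IMQ library. In all keratinocyte-like cells together (3043 and 1297 cells, unnamed keratin cluster 8 included), 8 of 8 members were lower (background 34.0%), with a median log2 ratio of -1.12 against -0.22 over all genes. Of all genes 12.6% were higher, and the lists are read against these shares. The sums are over unlike mixtures of keratinocytes. Outer root sheath or bulge keratinocyte-like cells were 826 of the normal and 22 of the IMQ cells. Differentiated keratinocyte-like cells were 378 and 0, and cluster 8 held 3 and 531. The part of this mixture in the counts was not tested. Of 11 other class I genes tested 9 were lower, H2-Q6 falling from 45.6 to 3.45 CPM, and the lipid-presenting Cd1d1 was higher (1.92 to 5.79 CPM). Of 6 peptide supply genes 3 were lower, with the immunoproteasome subunits Psmb9 (76.9 to 18.9 CPM) and Psmb8 (98.6 to 29.9 CPM) the lowest ratios, and Psmb10 was higher (24.6 to 46.5 CPM). The chaperone Calr was the 1 higher gene of 4 folding genes (218 to 357 CPM). Of 14 transcriptional control genes 3 were higher, among them Nfkb1 (71.0 to 156 CPM) and Irf1 (96.6 to 185 CPM), and 3 lower, among them Irf9 (17.9 to 8.47 CPM), a smaller share of the list than the 34.0% of all genes. Of 8 interferon ligand and receptor genes the feedback inhibitor Socs1 was higher (14.4 to 35.6 CPM) and Ifngr1 lower (84.1 to 29.4 CPM).

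Elsewhere the same lists gave other counts. In blood endothelial-like cells 6 of 6 peptide supply genes were lower (background 11.9%), Psmb9 falling from 268 to 108 CPM. In T cell-like cells 5 of 7 other class I genes and 4 of 7 interferon genes were lower (background 13.8%), and of the receptors that read class I, 3 of 3 were lower, Klrd1 falling from 965 to 352 CPM and its partner Klrc1 from 147 to 41.0 CPM. In monocyte or macrophage-like cells 4 of 7 other class I genes were lower (background 7.99%) and 3 of 8 interferon genes higher (background 8.86%), Ifnar1 rising from 24.3 to 64.9 CPM. In fibroblast-like cells 4 of 7 interferon genes were higher (background 13.5%), Jak1 rising from 125 to 247 CPM and Ifngr1 from 105 to 206 CPM, while 2 of 6 peptide supply genes were lower (background 15.6%). The T cell-like, monocyte or macrophage-like and fibroblast-like classes drew on different mixes of clusters in the normal and the IMQ library, as given above. The listed genes, Klrd1 and Klrc1 among them, were not compared within clusters.

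Summed over all kept cells, 2 of 8 members were lower, a share near that of all genes tested. Tap1 fell from 48.9 to 29.1 CPM and Nlrc5 from 11.3 to 6.71 CPM (background 23.6%), and the other 6 members did not pass: H2-K1 was at 860.2 and 758 CPM and B2m at 911 and 975 CPM. The lower follicle-like cells, with the low levels given above, were 1102 of the normal library's cells and 1 of the IMQ library's, so the sums are over unlike mixtures. In such a sum, fewer cells of a type and less RNA per cell cannot be told apart, and the leukocyte markers summed to 583 CPM in the normal and 905 CPM in the IMQ library.

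The IMQ+celastrol library was compared with the same IMQ library used above, so the 2 comparisons share it. Its differences were fewer and lay mainly in Tap1 and Tapbp, the genes for transport and loading. Over 10 named classes and 76 pairs of member and class, 11 were higher and 5 lower, beside 6.86% higher and 5.69% lower among all pairs of gene and class. Tap1 was higher in 5 of the 9 classes where it had enough UMIs and Tapbp in 4 of 10, with 1 higher call each for B2m and Nlrc5. H2-K1, H2-D1, H2-T23 and Tap2 were called higher in 0 classes. Tap1 had a ratio above 1 in 8 of 9 classes, and Tap2, its partner in the transporter, in 1 of 9. Only 3 of the 11 higher calls held in every alternative at the same fold that could be computed: Tapbp in basal keratinocyte-like cells and Tap1 in lymphatic endothelial-like and neutrophil-like cells.

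In basal keratinocyte-like cells (339 IMQ and 867 IMQ+celastrol cells, background 9.53%) B2m rose from 408 to 641 CPM, 1.57-fold higher (1.53 to 1.62). Tap1 rose from 27.5 to 46.1 CPM, 1.68-fold higher (1.51 to 1.86). Tapbp rose from 25.1 to 47.7 CPM, 1.90-fold higher (1.71 to 2.12). All 3 stayed under their normal-library levels of 1406, 79.1 and 68.5 CPM. H2-K1 stood at 495 and 702 CPM, a ratio of 1.42 (1.39 to 1.46) that did not reach the line. Cluster 16 held 549 of the IMQ+celastrol and 12 of the IMQ cells. Within cluster 15, with 327 and 302 cells, Tap1 was at 27.3 and 44.9 CPM, Tapbp at 24.5 and 37.7, and B2m at 406 and 525 CPM, the last a smaller step than in the class. Where every cluster took the name of its highest score, the B2m and Tap1 calls were lost. Per cell, B2m counted 22.1 UMIs in IMQ cells and 20.3 in IMQ+celastrol cells, with a class mean of 31585 UMIs in the latter.

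Upper follicle keratinocyte-like cells showed 0 calls (background 5.99% higher and 4.40% lower). B2m stood at 601 CPM in the IMQ and 601 CPM in the IMQ+celastrol library, a ratio with an interval of 0.971 to 1.03. H2-K1 had a ratio of 0.983 (0.952 to 1.01) and Nlrc5 one of 0.986 (0.756 to 1.29). Both libraries therefore lay near 601 CPM of B2m in these cells, and the normal library at 1289 CPM. Pericyte or smooth muscle-like and Schwann cell-like cells also had 0 calls (backgrounds 4.79% and 4.24% higher, 3.98% and 5.16% lower).

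In fibroblast-like cells (2867 and 2091, background 12.2%) Tap1 rose from 25.9 to 39.6 CPM, 1.53-fold higher (1.38 to 1.69), and Tapbp from 116 to 179.7 CPM, 1.55-fold higher (1.48 to 1.62). All genes of this class had a median log2 ratio of 0.13, and both calls were lost under scaling by the median ratio over genes and in 4 other alternatives. The class again rested on different clusters: cluster 1 held 1268 IMQ and 70 IMQ+celastrol cells, and cluster 31 held 14 and 216. Tapbp stood at 122 and 192 CPM within cluster 1, 94.8 and 187 in cluster 10, 91.5 and 162 in cluster 14, 169.7 and 199.9 in cluster 5, 144 and 141 in cluster 3 and 86.0 and 82.6 CPM in cluster 4. Tap1 stood at 28.8 and 49.7 CPM within cluster 1, 22.8 and 38.0 in cluster 10, 16.8 and 29.1 in cluster 3, 35.1 and 40.2 in cluster 4, 51.0 and 46.7 in cluster 5 and 30.7 and 30.5 CPM in cluster 14. The Tapbp and Tap1 differences were thus not shared by all fibroblast clusters. In lymphatic endothelial-like cells (182 and 150, background 4.42%) Tap1 rose from 41.6 to 78.2 CPM and Tapbp from 129.9 to 198 CPM. In monocyte or macrophage-like cells (562 and 96, background 4.70%) Tap1 rose from 70.3 to 127 CPM, 1.80-fold higher (1.35 to 2.38). In neutrophil-like cells (141 and 69, background 9.06%) it rose from 46.8 to 101 CPM, from 33 and 21 UMIs. In T cell-like cells (495 and 248, background 6.32%) Tapbp rose from 65.1 to 108 CPM and Nlrc5 from 10.8 to 25.3 CPM, the latter from 23 and 19 UMIs. Nlrc5 stood at 10.7 and 10.5 CPM in cluster 11 and at 10.9 and 34.3 CPM in cluster 23, and its direction turned when each library was clustered by itself. Both T cell calls were lost where every cluster took the name of its highest score, and Tapbp in lymphatic endothelial-like cells was lost when doublets were kept.

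Dermal papilla-like cells (250 and 391, all in cluster 13) were the 1 named class with lower calls (background 7.83%). H2-K1 fell from 1075 to 716 CPM, a ratio of 0.665 (0.626 to 0.707). H2-T23 fell from 85.3 to 28.9 CPM, 2.96-fold lower (2.29 to 3.82). Tap2 fell from 56.9 to 31.1 CPM, Tapbp from 53.7 to 32.6 CPM and Nlrc5 from 13.9 to 4.98 CPM, the last from 22 and 20 UMIs. H2-D1 had a ratio of 0.744 (0.707 to 0.782) and B2m one of 0.724 (0.686 to 0.764), which did not reach the line. The H2-K1 call, at the line itself, was lost under scaling by the median ratio over genes. With cells above 10% mitochondrial UMIs left out, or with the pathway genes used in the clustering, the newly named class did not have enough cells in both libraries. The 10% limit itself kept all 250 IMQ, 390 of 391 IMQ+celastrol and 65 of 66 normal cells of cluster 13. These 5 calls and the 5 higher ones above therefore depend on how the cells of the class were grouped.

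**Figure D5:**
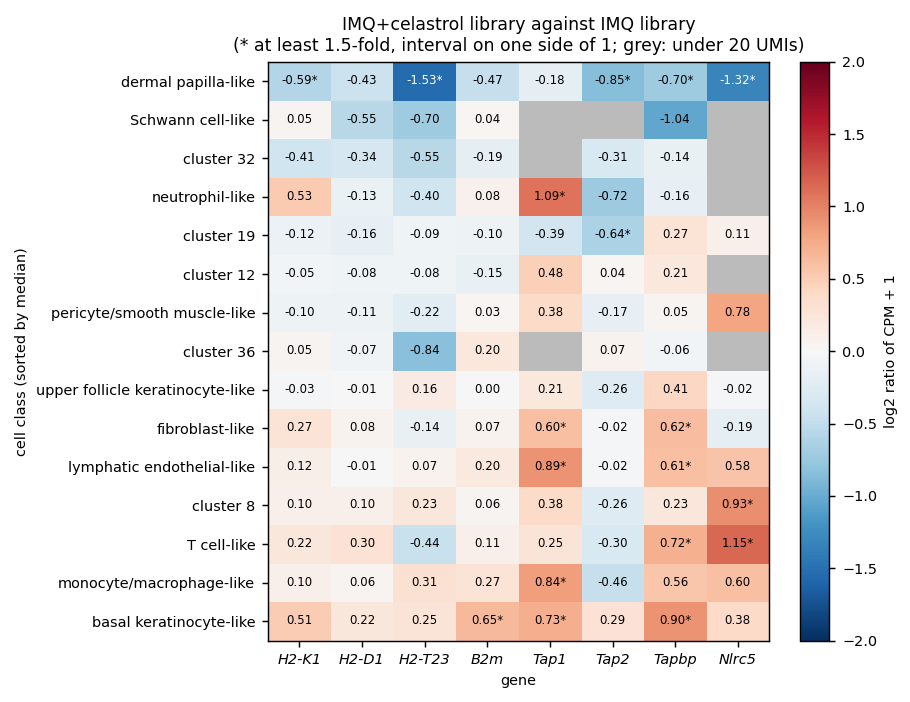
Log2 ratio of CPM + 1 in the IMQ+celastrol library over the IMQ library for each of the 8 genes (columns) in each class with at least 50 cells in both (rows); an asterisk marks at least 1.5-fold with the interval on one side of 1, and grey marks fewer than 20 UMIs. Most asterisks with positive values stand in the Tap1 and Tapbp columns, and 5 negative ones stand in the dermal papilla-like row.

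Peptide supply genes gave some higher calls in the same classes as Tap1 and Tapbp. In fibroblast-like cells 2 of 6 were higher (background 12.2%), Psmb10 rising from 60.8 to 94.6 CPM and Psmb9 from 25.5 to 39.6 CPM. Their ratios of 1.56 and 1.55 lay near the line, in a class with a median log2 ratio of 0.13 over all genes. The alternatives that lost the Tap1 and Tapbp calls there were not run on these genes. In monocyte or macrophage-like cells 2 of 6 were higher (background 4.70%), Psmb8 rising from 343 to 525 CPM. In lymphatic endothelial-like cells 3 of 6 were higher (background 4.42%), Psmb9 rising from 75.5 to 127 CPM, and 4 of 13 transcriptional control genes, with Irf9 rising from 36.7 to 87.2 CPM. In monocyte or macrophage-like cells the interferon-beta gene Ifnb1 rose from 45.6 to 254 CPM. In all keratinocyte-like cells Tap1 and Tapbp were higher (background 9.99%), with Tap1 at 24.5 and 37.6 CPM and Tapbp at 27.8 and 43.1 CPM, and 0 of 6 peptide supply genes passed in either direction. There, 6 of 10 other class I genes were higher and 1 lower (background lower 6.24%). Over all kept cells 0 of 8 members passed (background 6.78% higher and 11.7% lower), with leukocyte markers at 905 CPM in the IMQ and 255 CPM in the IMQ+celastrol library.

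Clusters that received no name carried the members too. Cluster 19, led by Ccl5, Gzma, Gzmc and Ifng, had high levels in all 3 libraries, with H2-K1 at 3733, 2882 and 2649 CPM and Nlrc5 at 35.4, 32.7 and 35.3 CPM in the 3 libraries in the order used above. Its 1 call was Tap2, which fell from 110.4 CPM in the IMQ to 70.7 CPM in the IMQ+celastrol library (background 6.19%). Cluster 8, led by Sprr2d, Krt6b, Sprr1b and other cornification genes, held 3, 531 and 348 cells. There H2-K1 stood at 507 CPM in the IMQ and 543 CPM in the IMQ+celastrol library, B2m at 427 and 446 CPM, and Nlrc5 rose from 3.89 to 8.30 CPM (background 8.21%). Cluster 12, led by Cfd, Apod and Hp, had 0 calls between the normal and the IMQ library (backgrounds 5.84% higher and 9.40% lower), with B2m at 1249.6 and 1412 CPM.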

How the data were processed

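Single-cell RNA libraries of dorsal skin were measured in 3 groups with 1 library each. The authors deposited, for each library, a filtered matrix of raw UMI counts per gene and cell whose headers name Cell Ranger 4.0.0; builds mm10 and GRCm38 are named in the submitters' processing notes. The strand setting and the treatment of reads that map to several genes are not given in the sources used here. Barcodes numbered 10565, 8236 and 6777 (normal, IMQ, IMQ+celastrol), with 77880943, 119831835 and 103267738 UMIs.

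Cells with under 300 genes (66, 131 and 187) or over 20% mitochondrial UMIs (113, 167 and 310) were left out. The doublet caller Scrublet marked 254, 5 and 88 cells by its own thresholds, which in the IMQ library is 0.0624% of cells and was taken as a failure. The highest-scoring cells were therefore left out at 0.8% per 1000 cells in every library (870, 513 and 330). Clustering used scanpy 1.11.5 and leidenalg 0.10.2 with 2000 variable genes, 30 principal components, 15 neighbours and resolution 1, without the 8 members and the pathway lists.

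A cluster took the name of the class with the most markers among its 10 leading genes or, with none there, of the class with the highest marker score, which then had to exceed the next 1.2-fold. At least 3 markers had to be detected in 25% of its cells, and the score had to reach 0.25 with 2 leading markers or 0.5 otherwise. Clusters 2, 9 and 18 so took another name than that of their highest score. These naming thresholds were set after the clusters had been seen. The members and the lists were chosen with earlier results of these data known. The rule for names was the 8 members in every class, the 2 highest and 2 lowest called ratios of each pathway list in the main classes, and the 10 genes most like the members. Of 53 listed pathway genes, 52 were in the files; 1 listed gene is not reported here.

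UMIs were summed per class and library (classes of at least 50 cells) and divided by the class total to give CPM. Ratios had exact conditional binomial intervals, shares Clopper-Pearson intervals and levels Poisson intervals, all at 95%, with scipy 1.17.1 and numpy 2.4.6. Log2 ratios used CPM + 1. For shares, cells were thinned to 2000 UMIs. The scripts were tested on simulated data. Alternatives changed the doublets, the clustering, the names, the mitochondrial limit, the weighting, the scaling, the thresholds and the clusters compared. Dropping the minimum of UMIs or adding 10 CPM before the logarithm could not lose a call. The mean CPM per cell and the shared clusters were called by the fold alone, without the interval. A restriction to cells of 10000 to 30000 UMIs and the motif GAANNGAAA were added after seeing the data. Promoter stretches that overlapped annotated transcript ends were shortened to at most 30 bases.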

Additional observations from a re-analysis of the deposited data

Results flagged for a closer look

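Some members had called log2 ratios of opposite sign in different classes under the same comparison. With 1 library per group these differences between classes were not tested. For the IMQ against the normal library, dermal papilla-like cells had 1.56 for H2-K1, 1.18 for H2-D1, 1.88 for H2-T23 and 1.54 for B2m, where basal keratinocyte-like cells had -1.49, -1.10, -1.60 and -1.78. Nlrc5 had 1.47 in dermal papilla-like and -1.64 in upper follicle keratinocyte-like cells. Tap1 had 0.58 in dendritic cell-like and -1.65 in upper follicle keratinocyte-like cells. Tap2 had 0.88 in lymphatic endothelial-like and -1.12 in basal keratinocyte-like cells. For the IMQ+celastrol against the IMQ library, Tapbp had 0.90 in basal keratinocyte-like and -0.70 in dermal papilla-like cells, and Nlrc5 had 1.15 in T cell-like and -1.32 in dermal papilla-like cells.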

How the results depend on the processing

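No paired analysis was possible because each group is 1 library. In every alternative that gave a value, 8 of 8 members stayed lower in the lower follicle, and no called pair of member and class was called the other way. All 16 lower calls of the basal and upper follicle classes in the IMQ library kept their call in each alternative at 1.5-fold that could be computed. For the basal class this was 12 alternatives, against 14 for the upper follicle. Those with shared clusters only or with cells of 10000 to 30000 UMIs could not be computed there. The basal calls were therefore not checked within shared clusters or at like depth. At 2-fold, 22 of all 32 lower calls in that library held. Higher pairs in the IMQ library numbered 4 without cells above 10% mitochondrial UMIs and 4 with the pathway genes in the clustering, and lower pairs in the IMQ+celastrol library 0 in both, because dermal papilla-like cells were then not compared. At 2-fold the IMQ+celastrol library had 2 higher and 2 lower pairs. With only clusters of at least 30 cells in both libraries it had 9 lower pairs; the cause was not tested. In cells of 10000 to 30000 UMIs, chosen after seeing the data, 2 classes gave 5 higher and 8 lower pairs for the IMQ library and 3 classes gave 2 higher and 0 lower for the IMQ+celastrol library. Nlrc5 in T cell-like cells, with few UMIs, turned from 1.15 to -0.75 when each library was clustered by itself; the cause was not tested. In that comparison 7 of 11 higher calls held with names by highest score, with the mean CPM per cell and with shared clusters only, and 8 of 11 with doublets kept. With 1 library per group no interval covers variation between animals, and members with few UMIs, Nlrc5 above all, have the widest intervals.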

Other observations

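The complement-expressing macrophage cluster 35, led by C1qb, C1qa and C1qc, held 106 normal and 59 IMQ cells, so it sets like cells beside each other. H2-D1 there stood at 3264 and 1668 CPM, H2-T23 at 362 and 121 CPM and B2m at 3057 and 2406 CPM. The median depth of its cells was 1787.5 and 6209.0 UMIs.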
